A study of Mus musculus with 2 samples.

Results

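Mir138-1, Mir138-2, Mir128-1, Mir128-2, Mir218-1 and Mir218-2 are the 6 mouse genes that encode the microRNAs miR-138, miR-128 and miR-218, each of which is made from a pair of gene copies on different chromosomes. They were chosen by name among the 2202 microRNA genes of the GENCODE M21 annotation, and all 6 had counts in both libraries. The samples were whole adrenal glands of female B6CASTF1/J mice aged 10 days, hybrids of the strains C57BL/6J and CAST/EiJ, with no treatment named. MicroRNA-seq gave 1 library per animal for 2 animals, which make up a single group, so no conditions were compared and the alleles of the parental strains were not separated. The labels number the animals separately but give both the same donor entry, and if that entry means 1 animal the spread below is technical. Replicate 1 held 2023410 reads assigned to microRNA genes and replicate 2 held 3208821.

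A microRNA gene is transcribed as a longer RNA that folds into a hairpin, from which the enzymes Drosha and Dicer cut a short duplex. Either side of the duplex, named the 5p or 3p arm, can enter an Argonaute protein and direct it to messenger RNAs, mainly through the seed, bases 2 to 8 of the arm. In each of these families the arm known as the main product (miR-138-5p, miR-128-3p and miR-218-5p) is identical in both copies. All 3 microRNAs are best known from the nervous system: miR-138 limits the size of dendritic spines in rat neurons, miR-128 restrains neuronal excitability in mice, and miR-218 is a microRNA of motor neurons. The adrenal medulla holds chromaffin cells, which descend from the neural crest and receive nerve endings, beside the steroid-producing cortex.

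The hairpins are shown because their sequence decides which reads can be counted for which copy. Reads with several alignments were left out of the counts, and they were as frequent as 65.2 and 72.6 per 100 assigned reads in replicates 1 and 2. In the RefSeq sequences of build GRCm38.p6, written 5′ to 3′, capitals mark the run around the shared arm that is identical in both copies.
Mir138-1: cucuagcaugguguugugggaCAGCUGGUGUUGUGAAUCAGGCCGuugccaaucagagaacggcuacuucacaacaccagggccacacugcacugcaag
Mir138-2: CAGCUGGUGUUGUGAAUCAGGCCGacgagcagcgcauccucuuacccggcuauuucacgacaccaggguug
Mir128-1: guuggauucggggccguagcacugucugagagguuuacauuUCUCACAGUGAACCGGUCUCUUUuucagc
Mir128-2: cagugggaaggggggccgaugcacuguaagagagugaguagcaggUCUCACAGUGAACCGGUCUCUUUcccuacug
Mir218-1: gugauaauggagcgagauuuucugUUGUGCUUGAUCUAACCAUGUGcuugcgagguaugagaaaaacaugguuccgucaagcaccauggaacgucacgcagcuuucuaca
Mir218-2: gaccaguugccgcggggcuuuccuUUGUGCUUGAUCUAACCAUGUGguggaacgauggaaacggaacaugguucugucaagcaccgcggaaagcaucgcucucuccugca

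The shared run was 24 bases long in the miR-138 pair, 23 in the miR-128 pair and 22 in the miR-218 pair. It was barely longer than the shared arm itself, which has 23, 21 and 21 bases. In the miR-138 pair it went 1 base beyond the 5′ end of the arm, where the annotated Mir138-2 hairpin begins, and stopped at the arm's 3′ end. Bases before that hairpin were not compared. In the miR-128 pair it went 2 bases beyond the 5′ end and stopped at the 3′ end. In the miR-218 pair it stopped at the 5′ end and went 1 base beyond the 3′ end. A read of the annotated shared arm therefore fits both copies, whereas a read that continues past the run matches a single hairpin of the pair.

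The mature arms are shown with the seed in capitals, because a single arm of each hairpin names its copy.
miR-138-5p (both copies): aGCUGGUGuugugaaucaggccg
miR-138-1-3p (Mir138-1): cGGCUACUucacaacaccaggg
miR-138-2-3p (Mir138-2): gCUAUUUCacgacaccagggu
miR-128-3p (both copies): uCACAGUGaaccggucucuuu
miR-128-1-5p (Mir128-1): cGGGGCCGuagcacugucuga
miR-128-2-5p (Mir128-2): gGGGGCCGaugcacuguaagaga
miR-218-5p (both copies): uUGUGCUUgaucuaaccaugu
miR-218-1-3p (Mir218-1): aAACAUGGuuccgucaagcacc
miR-218-2-3p (Mir218-2): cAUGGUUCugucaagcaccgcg

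Of these 9 arms, 3 were held by both hairpins of a pair and 6 by a single hairpin among the 1005 mouse hairpins of the RefSeq table. The 9 arms carried 8 seeds. The copy-specific arms of the miR-128 pair had the same seed, GGGGCCG, and differed at C1G, U9A, A10U, C18A and U19A, written as the base of the first copy, its position from the 5′ end of that copy's arm, and the base of the second copy. The copy-specific arms of the other pairs had different seeds. In the miR-138 pair 18 of 20 overlapping bases matched, with C7U and A13G, and the arms began 2 bases apart. In the miR-218 pair 18 of 19 matched, with C12U, and the arms began 3 bases apart. Outside these families the seed of miR-218-5p recurred in miR-7002-3p, whose gene Mir7002 had 0 and 1 counts, and the seed of miR-218-1-3p in miR-496b, whose gene had no count in either library.

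**Figure D1:**
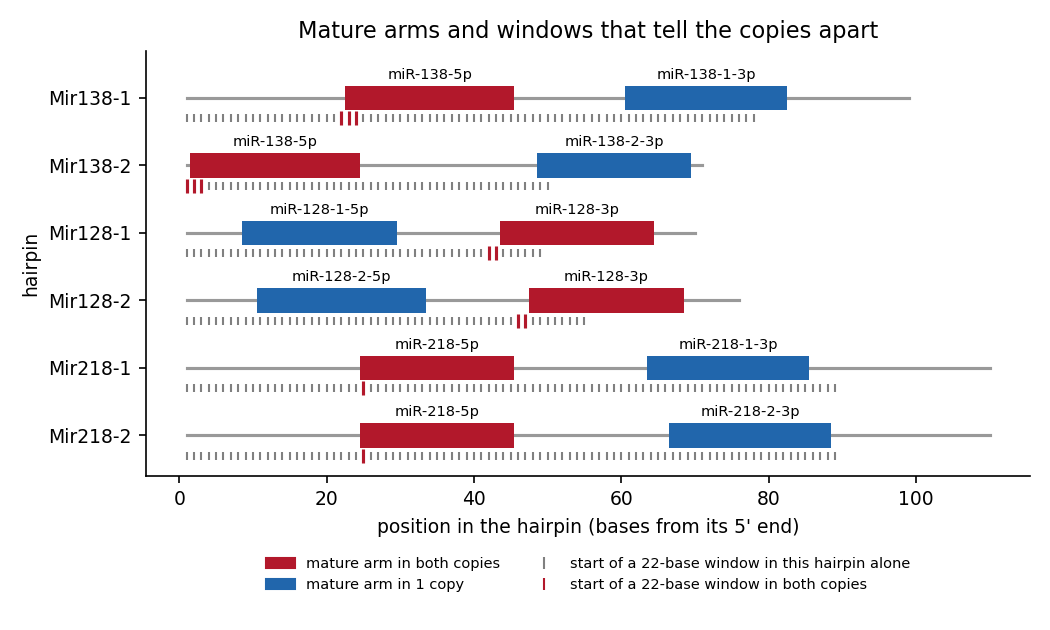
Positions of the mature arms in the 6 hairpins, in bases from the 5′ end, with the arm held by both copies in red and the copy-specific arm in blue; ticks mark where each 22-base window starts. Windows held by both copies (red ticks, 3, 2 and 1 per hairpin in the miR-138, miR-128 and miR-218 pairs) start only at or beside the shared arm.

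Windows of 22 bases, a usual microRNA length, were compared among all hairpins of the table. Of the 78 windows of Mir138-1, 75 were in no other hairpin, and of the 50 of Mir138-2, 47 were. Mir128-1 had 47 such windows of 49 and Mir128-2 had 53 of 55, and Mir218-1 and Mir218-2 had 88 of 89 each. All windows found elsewhere lay in the other copy, and none lay in a hairpin outside the pair. The remaining genome was not searched. The counts below are thus made of reads that could be told apart, and they leave out the annotated main product of every family. They are lower limits for each gene only if every read came from the copy that it matched, which was not tested. The deposited counts do not separate the arms, so how many counts came from the copy-specific arm and how many from longer or shifted forms of the shared arm is not known.

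The 6 genes lie in different surroundings in build mm10 (GRCm38). Mir128-1 lies on chromosome 1, positions 128202361 to 128202430, in an intron of R3hdm1 on the same strand. Mir128-2 lies on the minus strand of chromosome 9, positions 112118636 to 112118711, in an intron of Arpp21, the gene of a phosphoprotein of neurons. Mir218-1 (chromosome 5, positions 48223942 to 48224051) lies in an intron of Slit2, and Mir218-2 (chromosome 11, positions 35616816 to 35616925) in an intron of Slit3. Slit2 and Slit3 encode secreted ligands of Robo receptors, which guide axons and migrating cells. Mir138-1 and Mir138-2 overlapped exons and no protein-coding gene. Mir138-1 (chromosome 9, positions 122682876 to 122682974) overlapped an exon of the transcribed pseudogene Gm47135, and Mir138-2 (chromosome 8, positions 94324311 to 94324381) an exon of the long noncoding RNA gene C78859. All hosts run on the strand of the microRNA. The libraries hold short RNAs, so host transcripts were not measured.

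Mir138-1 had the highest level of countable reads of the 6 genes in both animals, and Mir218-1 the lowest. Levels are given in CPM, in which the count of a gene on its own strand is scaled to a fixed total of all counts assigned to microRNA genes. A short-RNA read spans a whole mature product, so counts were not divided by hairpin length, which ran from 70 to 110 bases. The exact Clopper-Pearson 95% intervals cover counting error only. In bulk tissue, fewer cells of a type and less RNA per cell cannot be told apart.

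Mir138-1 had 777 counts in replicate 1, which is 384 CPM (95% interval 357 to 412), and 1140 counts in replicate 2, which is 355 CPM (335 to 377). Its mean was 370 CPM ± 20.3 (SD, n = 2). Its copy Mir138-2 had 327 and 545 counts, or 162 and 170 CPM, a mean of 166 CPM ± 5.82 (SD, n = 2). Each copy stood at a similar level in both animals, and the values of the copies did not overlap.

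Mir128-1 had 163 counts in replicate 1, which is 80.6 CPM (95% interval 68.7 to 93.9), and 390 counts in replicate 2, which is 122 CPM (110 to 134). Its mean of 101 CPM ± 29.0 (SD, n = 2) had the widest spread of the 6 genes. Mir128-2 had 38 and 62 counts, or 18.8 CPM (13.3 to 25.8) and 19.3 CPM (14.8 to 24.8). The intervals of Mir128-1 did not meet between the animals, and those of Mir128-2, which had far fewer counts, overlapped.

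In the miR-218 pair the second copy was the higher. Mir218-2 had 197 and 274 counts, or 97.4 CPM (95% interval 84.2 to 112) and 85.4 CPM (75.6 to 96.1). Mir218-1 had 22 and 35 counts, or 10.9 CPM in both libraries (6.81 to 16.5 and 7.60 to 15.2). Its intervals reach below 10 CPM, the level at which a gene was called measured, and its 22 counts in replicate 1 were the fewest of any member.

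**Figure D2:**
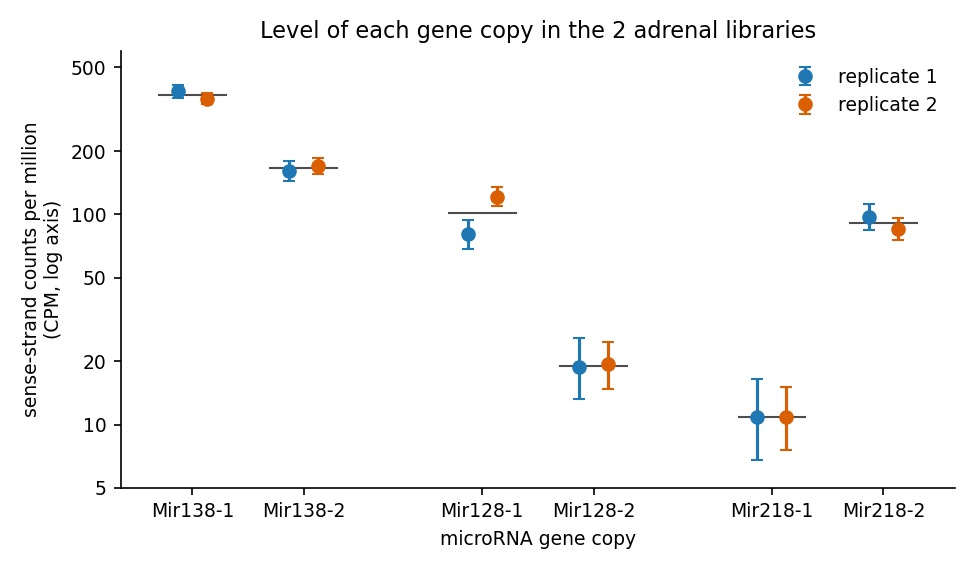
Level of each gene copy in CPM on a log axis, with points for replicates 1 and 2, bars for the exact 95% counting intervals and grey lines for the mean of the animals. Mir138-1, at 384 and 355 CPM, is the highest, and Mir218-1, at 10.9 CPM in both, the lowest; Mir128-1 alone shows intervals that do not meet between the animals.

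By mean CPM the order was Mir138-1, Mir138-2, Mir128-1, Mir218-2, Mir128-2 and Mir218-1. This is an order of countable reads, which lack the annotated shared arm of each family, so it does not rank the microRNAs themselves. Mir138-1 and Mir138-2, Mir138-2 and Mir128-1, and Mir218-2 and Mir128-2 had intervals that did not meet in either animal. Mir128-1 and Mir218-2 changed places, with Mir218-2 the higher in replicate 1, where the intervals overlapped, and Mir128-1 the higher by 1.42 times in replicate 2. Mir128-2 was 1.73 and 1.77 times as high as Mir218-1, but their intervals overlapped in both animals. Together the 6 genes stood at 753 and 762 CPM. The miR-138 copies summed to 546 and 525 CPM, the miR-128 copies to 99.3 and 141 CPM, and the miR-218 copies to 108 and 96.3 CPM. No read was counted on the opposite strand at any of the 6 genes in either library.

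Within every pair a single copy supplied most of the countable reads, and it was the same copy in both animals. Of the reads of its pair, Mir138-1 supplied 70.4% in replicate 1, with an exact 95% interval from 67.6 to 73.1%, and 67.7% in replicate 2, with one from 65.4 to 69.9%. It was 2.38 and 2.09 times as high as Mir138-2, a mean log2 ratio of 1.16 ± 0.13 (SD, n = 2). Mir128-1 supplied 81.1% (75.0 to 86.3%) and 86.3% (82.8 to 89.3%) of its pair, 4.29 and 6.29 times as much as Mir128-2, a mean log2 ratio of 2.38 ± 0.39 (SD, n = 2). Mir218-1 supplied only 10.0% (6.40 to 14.8%) and 11.3% (8.02 to 15.4%) of its pair, so that Mir218-2 was 8.95 and 7.83 times as high (mean log2 ratio of Mir218-1 over Mir218-2 -3.07 ± 0.14, SD, n = 2).

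All 3 pairs departed from equal counts in each library by the two-sided exact binomial test with Benjamini-Hochberg adjustment over 25 pairs. The larger of the adjusted p-values was 2.44e-42 for the miR-138 pair, 1.91e-19 for miR-128 and 6.16e-36 for miR-218. These p-values measure counting error within a library, and over 2 animals the smallest p a sign-flip permutation allows is 0.5. Unequal copies were the rule: of the 25 microRNA pairs numbered 1 and 2 that reached 10 CPM in either library, 21 (84%) were unequal in both libraries with the same copy higher. The hairpins of the miR-138 pair and of the miR-128 pair differ in length and in countable sequence, and the part of this in their ratios was not tested. Divided by hairpin length, the log2 ratio of the miR-138 pair was 0.68. Divided by the number of windows found in that hairpin alone, it was 0.48. The adjusted p was 3.27e-15 and 1.98e-07 by the same exact test. For the miR-128 pair the same divisions gave log2 ratios of 2.50 and 2.55. Both settings were chosen after the data were seen.

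By size of the mean log2 ratio, the miR-218, miR-128 and miR-138 pairs ranked 11, 13 and 17 of the 25 pairs, so none was at either end. The median over the 22 pairs with counts of both copies in both libraries was 1.96. At one extreme, Mir199a-1 had 0 and 1 counts against 54 and 53 for Mir199a-2, a pair whose mature arms are identical in both copies. Mir19b-1 had 22 and 24 counts against 0 and 3 for Mir19b-2, and Mir3074-1 had 41 and 57 against 0 and 0 for Mir3074-2. At the other, copy 1 supplied 48.1% and 57.9% of the Mir365 pair and 57.6% and 53.3% of the Mir29b pair, and neither pair passed in either library. The Mir30c pair, at 42.3% and 52.0%, was unequal in replicate 1 alone, and its share differed between the libraries (Fisher's exact test, adjusted p = 8.28e-05). Like the members, 23 of the 25 pairs have exactly 1 annotated mature arm in common.

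**Figure D3:**
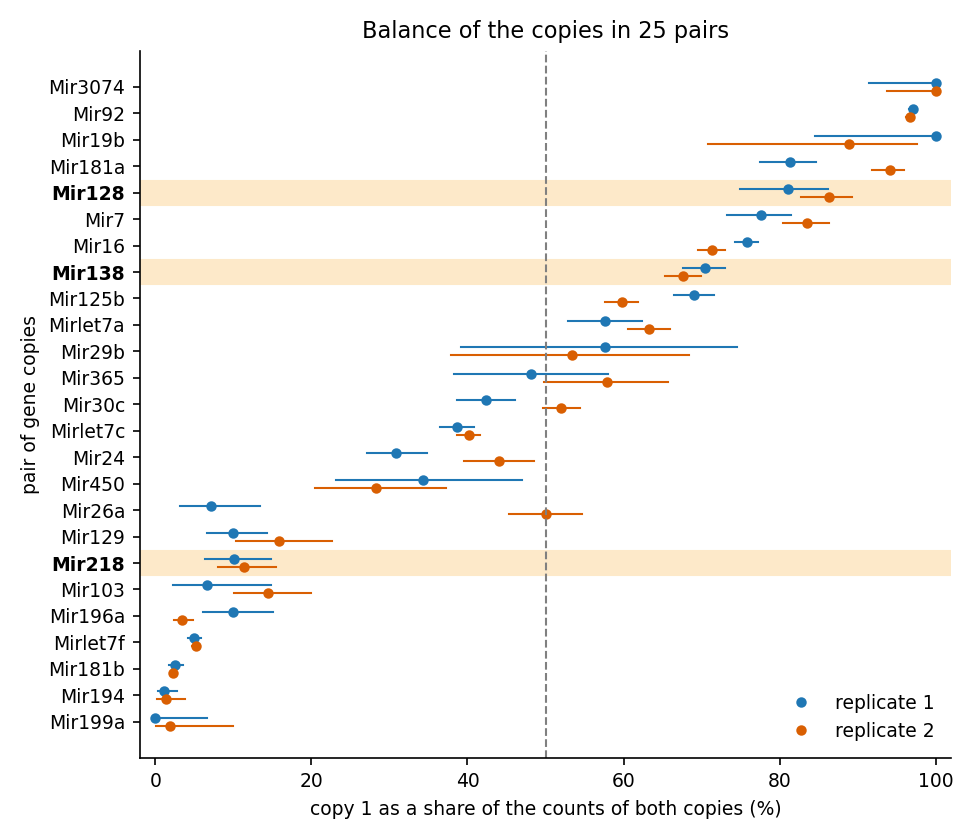
Copy 1 as a percent of the counts of both copies in 25 pairs of microRNA genes, with points for replicates 1 and 2, lines for the exact 95% intervals and a dashed line at equal counts. Shaded rows mark Mir128 (81.1% and 86.3%), Mir138 (70.4% and 67.7%) and Mir218 (10.0% and 11.3%), each on 1 side of the dashed line in both animals.

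The balance of the copies was not shown to differ between the animals in any of the 3 families. The share of Mir138-1 was 2.72 percentage points lower in replicate 2 than in replicate 1 (a difference of -2.72 points, Newcombe 95% interval -6.19 to 0.80). The share of Mir128-1 was 5.19 points higher (-0.75 to 11.8), and that of Mir218-1 was 1.28 points higher (-4.33 to 6.49). By Fisher's exact test the p-values were 0.133, 0.0995 and 0.672, or 0.237, 0.214 and 0.818 after Benjamini-Hochberg adjustment over the 25 pairs, of which 7 (28%) passed. A higher share of Mir128-1 by as much as 11.8 points in replicate 2 lies within its interval.

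**Figure D4:**
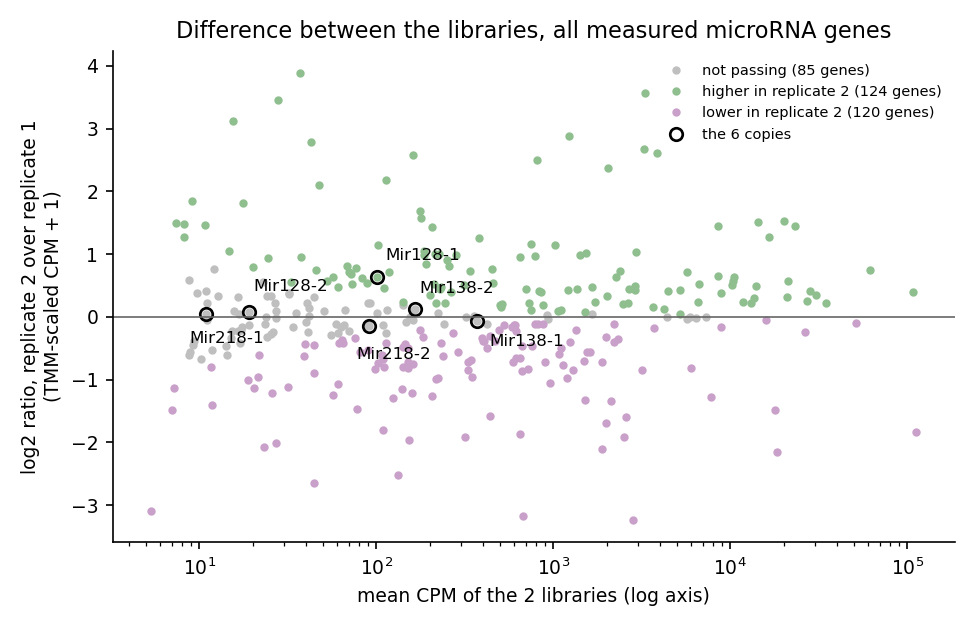
Log2 ratio of replicate 2 over replicate 1 (TMM-scaled CPM with 1 CPM added) against the mean CPM on a log axis for the 329 measured microRNA genes, coloured by the exact test, with the 6 copies circled. Mir128-1, at 0.63, is the only circled gene among those that passed, and the other 5 lie between -0.14 and 0.12.

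Mir128-1 was the only member that passed the test between the libraries. Its log2 ratio of replicate 2 over replicate 1 was 0.63 (exact 95% interval 0.37 to 0.91), with an adjusted p of 2.41e-06 by the two-sided exact conditional binomial test with TMM scaling and Benjamini-Hochberg adjustment over 329 genes. That test sets 2 libraries against counting error and compares no conditions. The same test called 244 of the 329 genes (74.2%). In the span of mean CPM from the lowest to the highest member it called 106 of 175 genes, or 60.6%.

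The other 5 members did not pass. The log2 ratio was -0.06 for Mir138-1 (exact 95% interval -0.20 to 0.07), 0.12 for Mir138-2 (-0.08 to 0.32) and -0.14 for Mir218-2 (-0.41 to 0.13). The lowest copies were less well determined, with 0.08 for Mir128-2 (-0.52 to 0.71) and 0.05 for Mir218-1 (-0.76 to 0.89), intervals that include the ratio of Mir128-1. The median absolute log2 ratio was 0.10 over the 6 members and 0.49 over all genes tested.

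Other microRNAs known from neurons were taken from a list of 15 genes, 9 of which reached 10 CPM in either library. Their median log2 ratio was -0.12, and 2 were higher in replicate 2, 2 were lower and 5 did not pass. Mir137, which acts in neuronal differentiation, led the list at 869 and 774 CPM (log2 ratio -0.12, adjusted p = 0.0135 by the exact test). Mir132, a microRNA induced by neuronal activity, followed at 486 and 526 CPM (0.16, adjusted p = 0.00702 by the exact test). Mir129-2 stood at 116 and 39.9 CPM, a log2 ratio of -1.47, and Mir383 at 28.2 and 35.8 CPM.

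The members' values lack the annotated shared arm, so they were not ranked against Mir137 and Mir132, which have no numbered copy. The copies of Mir124a and Mir9, microRNAs typical of neurons, had at most 1 count each in either library. Each of these families has 3 copies, whose common reads were not counted either, so their low counts set no limit on the families.

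The list of chromaffin and other neuroendocrine cells summed to 27342 and 34204 CPM, most of it Mir375 at 24805 and 31924 CPM, with Mir7b at 2333 and 2081 CPM. Of its 4 genes, 1 was higher in replicate 2, 2 were lower and 1 did not pass. The glial list of 4 genes summed to 369 and 360 CPM, nearly all from Mir338, and 1 of its genes had no count. No list of cortex microRNAs was used.

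Markers of other cell types also stood at different levels in the libraries. The endothelial genes summed to 177732 and 47928 CPM. Those of striated muscle summed to 11315 and 4508 CPM, nearly all from Mir206 at 11177 and 4480 CPM, with 2 of the 9 genes at 0. The genes at 0 have numbered copies, and reads common to copies were not counted, so they set no limit on their families. The hepatocyte gene Mir122 stood at 26733 and 9284 CPM, and the red blood cell genes Mir451a and Mir144 summed to 594 and 290 CPM, beside 58.8 and 30.2 CPM for Mir486, which the annotation holds as a single gene. Smooth muscle genes summed to 28429 and 39315 CPM and leukocyte genes to 2251 and 4077 CPM. The sums of the smooth muscle, leukocyte and neuroendocrine lists were higher in replicate 2, as Mir128-1 was. In the neuroendocrine list Mir375 alone passed as higher, Mir7-2 and Mir7b passed as lower, and Mir7-1 did not pass. The part of these lists in the difference of Mir128-1 was not tested.

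The genes nearest to the higher copy of each pair were found by Euclidean distance of log2(CPM + 1) over the 2 libraries, which describes like levels only. Mir338 (363 and 355 CPM, distance 0.08) and Mir667 (448 and 343 CPM, 0.23) were nearest to Mir138-1. Mir450b (94.9 and 127 CPM, 0.24) and Mirlet7f-1 (73.1 and 103 CPM, 0.27) were nearest to Mir128-1. Mir345 (93.9 and 84.8 CPM, 0.05) and Mir877 (92.9 and 81.0 CPM, 0.10) were nearest to Mir218-2.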

How the data were processed

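The authors deposited raw read counts per microRNA gene for each library, made with the mm10 build and the M21 annotation, as the text beside each deposited table says; of the aligner and counter, name and version were not given in the sources used here. By their values, the 3 columns hold counts irrespective of strand, on the gene's strand (used here) and on the opposite strand. Per replicate, the summary lines set aside 25.0% and 27.2% of reads for having several alignments, 28.1% and 26.4% as unmapped and 8.55% and 8.86% as lying outside microRNA genes; these lines stayed out of totals and tests. A single count is worth 0.494 CPM in the first library and 0.312 CPM in the second. The sources name no molecular identifiers, so intervals cover counting error only. The libraries differed beyond sampling noise (chi-square 510893, 789 degrees of freedom), so they are not 1 library deposited again; this does not show that they come from separate animals.

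All 2202 identifiers were matched to M21 symbols, and all 6 members to RefSeq sequences. Copies were compared by exact binomial tests within a library and Fisher's exact test between libraries, over all microRNA genes with exactly a copy 1 and a copy 2 and a summed level of at least 10 CPM in either library. Libraries were compared over 329 genes that reached 10 CPM in either, with TMM sizes from edgeR 4.0.16 and a pseudocount of 1 CPM, which understates the change of low genes. A threshold of 0.05 was used for adjusted p-values. The procedures were tested on simulated counts with counting error alone, without the further difference seen between these libraries. Calculations used R 4.3.3, DESeq2 1.42.0 (an alternative scaling), Python 3.11.15, SciPy 1.17.1 and pandas 2.3.3.

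The members, lists and tests were chosen with earlier results of these data known. Genes named were the 6 members, the 2 nearest to each higher copy, at most 4 listed genes by mean CPM at 10 CPM or more, and 3 other pairs at each end; the copies of Mir124a and Mir9, Mir486, Mir7002 and the gene of miR-496b were named besides.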

Additional observations from a re-analysis of the deposited data

How the results depend on the processing

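Mean levels moved by more than 1 SD with the library total. Scaled to all reads with 1 alignment, Mir138-1, Mir138-2, Mir128-2, Mir218-1 and Mir218-2 stood at 301, 135, 15.5, 8.86 and 74.3 CPM. Mir128-1 fell as well, to 82.1 CPM, which lay within 1 SD only because its SD of 29.0 CPM was the widest. Counted irrespective of strand, where many reads of other genes were ambiguous and left the total, Mir138-1, Mir138-2, Mir128-1, Mir128-2, Mir218-1 and Mir218-2 stood at 501, 224, 135, 25.8, 14.7 and 124 CPM, from the same counts as before. The copy ratios kept their direction in all 7 alternatives each. Log2 ratios ran from 0.48 to 1.25 for miR-138, 2.10 to 2.65 for miR-128 and -3.16 to -2.95 for miR-218, each library alone included. Most of these settings could not change the call. Adding a constant to each copy kept the main call without a new test, and each library alone repeated a test already required. The members' counts irrespective of strand were the same as before. In the miR-218 pair, hairpin length and windows are equal, so dividing by them changed nothing. Mir128-1 passed between libraries in 7 of 7 alternatives (log2 ratio 0.59 to 0.67), and the other 5 members passed in none, with adjusted p-values by the exact test from 0.123 to 1. That test does not use the pseudocount, so changing the pseudocount repeated the main result. A changed floor altered only the set of genes adjusted over, so these alternatives are not separate checks. At a floor of 100 CPM, Mir128-2 and both copies of Mir218 were not tested. Unequal pairs numbered 16 of 18 (88.9%) at 100 CPM, 21 of 29 (72.4%) with 1 count or more and 19 of 23 (82.6%) irrespective of strand, and 21 to 23 of 25 in a single library. Depth limits Mir218-1 and Mir128-2 most, with 22 to 62 counts per library. No paired analysis was possible because the samples form a single group.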
